A study of Homo sapiens with 10 samples.

Results

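The early transcriptional response of CWR22Rv1 cells to arginine starvation was read from 2 of the 10 arrays of the series. One array held RNA of cells kept in arginine-free medium for 24 h, and the other held RNA of the control cells of the same time course. The subtraction of the control value from the 24 h value gave one log2 difference for each of 17687 genes, and those differences are described here. With 1 array a side no test was made and no difference has a replicate check of its own.

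CWR22Rv1 is a human prostate cancer line that was established from a xenograft relapsed after castration, and the whole experiment used this 1 line. The starved cells were in RPMI without arginine, made with dialyzed fetal bovine serum, antibiotics and HEPES. The control cells had the same medium with 200 mg/L L-arginine added back. The title of the control array says 0 h, whereas its other labels say 24 h in control medium. The same time course held an array of cells starved for 48 h. Further arrays came from a second CWR22Rv1 experiment, named here after dimethyl-α-ketoglutarate (DMKG), in which cells spent 48 h in arginine-free medium, in arginine-free medium with DMKG or in control medium, 1 array each. PC3, a human prostate cancer line from a bone metastasis, gave 2 arrays after 48 h without arginine and 2 in control medium.

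Cells that lack an amino acid accumulate uncharged tRNA, which activates the kinase GCN2 (encoded by EIF2AK4). GCN2 phosphorylates the initiation factor eIF2α, general translation slows, and the transcription factor ATF4 is translated more, which is known as the integrated stress response. ATF4 is known to induce genes of amino acid synthesis, uptake and tRNA charging, its own partners and brakes (CEBPG, DDIT3, ATF3, TRIB3) and the negative regulators of growth signalling DDIT4 and SESN2. Prostate cancer cells with little argininosuccinate synthetase (ASS1) depend on arginine from outside.

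The deposited values of the 24 h and 0 h arrays lay at similar levels. They had already been processed by the authors, so they are not a measure of RNA or array quality. The median over genes was 6.30 at 24 h and 6.34 at 0 h, and the 95th percentile of the 612 negative control probe sets was 7.17 at 24 h and 7.02 at 0 h. A gene is called above the negative controls where it passed that percentile on at least one of both arrays, which 8098 genes (45.8%) did. The defining luminal epithelial genes KRT8 (14.14 at 24 h, 14.84 at 0 h), KRT18 (14.24 and 13.61), EPCAM (12.42 and 12.77) and HOXB13 (9.49 and 10.16) were high, in that order of arrays, while the androgen-regulated genes KLK3 (6.19 and 6.27), KLK2 (5.64 and 6.54) and TMPRSS2 (6.67 and 6.81) were not above the negative controls. No basal (0 of 3), leukocyte (0 of 9) or endothelial (0 of 5) marker passed them, and 1 of 8 stromal markers did, COL1A2 at 6.67 at 24 h and 7.65 at 0 h. In a bulk culture fewer cells in a state and less RNA per cell cannot be told apart.

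The control array of the time course stood apart from the control of the DMKG experiment, and every difference below rests on it. After quantile normalization over the 6 CWR22Rv1 arrays both controls differed 2-fold or more for 3597 genes (20.3%, made up of 10.6% higher and 9.71% lower in the time course), and both 48 h starved arrays for 3475 genes (19.6%). The genes that stood apart included those of the stress response and of sterol synthesis. CHAC1, a glutathione-degrading enzyme induced by ATF4, read 12.48 in the control of the time course and 6.56 in the other control. GDF15, a stress-induced cytokine, read 13.28 and 7.61, DDIT4 12.51 and 8.33, SLC7A11, the cystine transporter, 14.02 and 10.90, and the cholesterol synthesis enzyme HMGCS1 9.60 and 12.28, in the same order. Over whole lists the normalized control of the time course lay above the other control by a median of 1.10 for ATF4 targets and differed from it by a median of −1.28 for cholesterol genes and −0.70 for mitotic genes. The hours in control medium differ between both controls by the labels (24 h and 48 h). Their part in these gaps was not tested. List medians below are therefore also given against the control of the DMKG experiment. With it the sign turned for 11 of 49 list medians and for 86 of the 399 genes named by rule, 12 of them past 2-fold at 24 h.

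At 24 h, 272 genes (1.54% of all) were 2-fold or more higher and 272 genes (1.54%) 2-fold or more lower than in the control, 544 (3.08%) in either direction. The 48 h comparisons had more, with 7.11% of all genes past 2-fold in either direction at 48 h of the time course, 7.67% in the DMKG experiment and 10.9% in PC3 cells. Most were modest: the median size was 1.15 on the log2 scale among the higher and 1.16 among the lower genes, and 7 higher and 6 lower genes passed 4-fold. ATF3, a stress-induced transcription factor, was 5.24-fold higher, TES, a focal adhesion protein gene, 5.11-fold higher, CHAC1 3.75-fold higher, and CIDEB, a lipid droplet protein gene, 6.88-fold lower. Of the higher genes 175 (64.3%) and of the lower genes 193 (71%) were above the negative controls. Of all 17687 genes 9080 (51.3%) had a positive and 8585 a negative difference. These shares and the 1.54% in each direction are the background of the list counts at 24 h below.

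The spread between replicate arrays could be read only in PC3 cells. Among genes above the negative controls, 2-fold differences occurred for 4.54% between the 24 h and 0 h arrays, against 0.212% between the 2 starved PC3 arrays and 0.165% between the 2 control PC3 arrays. Among the remaining, dim genes the shares were 1.84%, 2.15% and 2.02%, in the same order. Thus 2-fold differences of dim genes were about as frequent between PC3 replicates as between 24 h and 0 h, and those of brighter genes were not. Nothing in the labels says that the PC3 replicates came from separate cultures, so their spread may be technical.

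**Figure D1:**
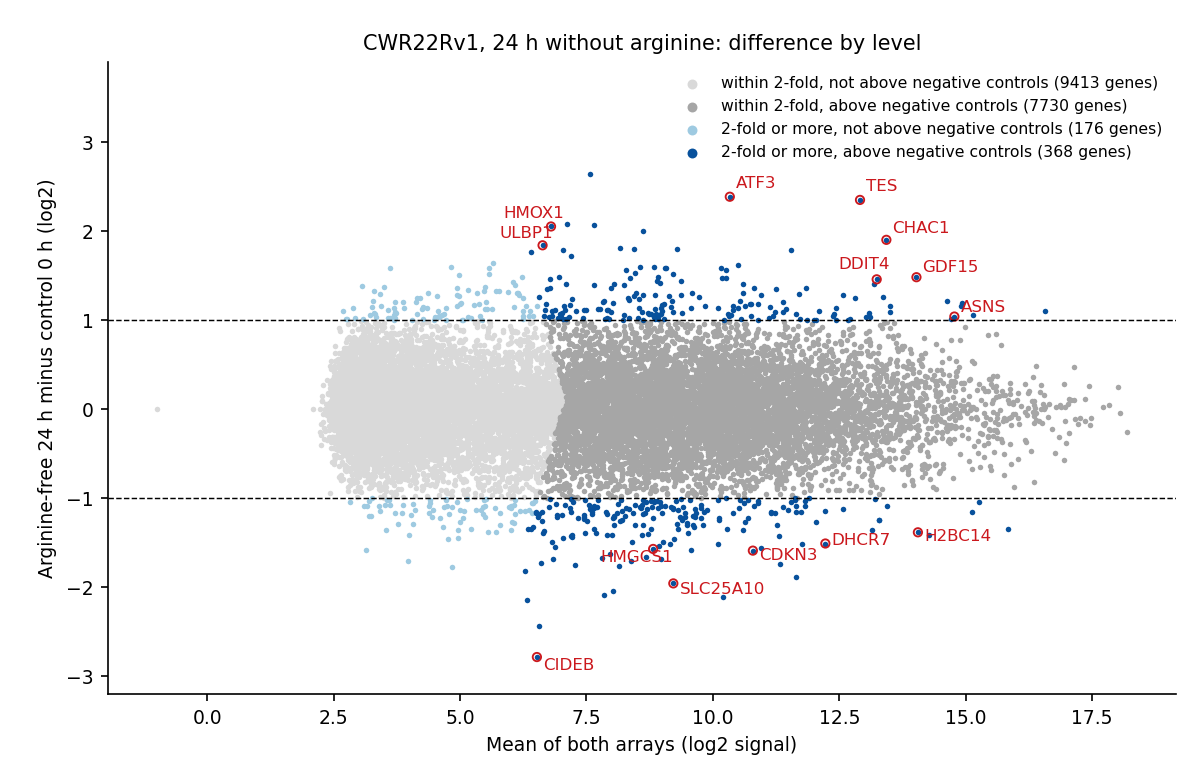
Difference between the arginine-free 24 h array and the control 0 h array (y axis, log2) against the mean of both arrays (x axis, log2 signal) for 17687 genes, with dashed lines at 2-fold. The 368 bright genes past 2-fold (dark points) include ATF3, TES and CHAC1 above the upper line and CIDEB, SLC25A10 and CDKN3 below the lower one.

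Promoter sequence is shown for 3 genes of the ATF4 programme that were past 2-fold at 24 h and for CDKN3, the single mitotic gene past 2-fold. These 3 were the only genes of that programme past 2-fold with a match to the motif marked below, so they are not typical of it. Windows of 300 bases, from 250 before to 50 after the annotated start, were taken from RefSeq (GRCh38.p14). A single annotated start a gene was searched, so sites at any other start of the same gene, ATF3 included, were not looked for. Capitals mark in CHAC1, ATF3 and ASNS the CCAAT/enhancer binding protein and ATF composite element TGATGNAA, the site type through which ATF4 acts, and in CDKN3 the cell cycle homology region TTTGAA, a short element common in promoters of mitotic genes. Both were searched on both strands, and neither motif contains the other.
CHAC1 (chr15:40953221-40953520, plus strand): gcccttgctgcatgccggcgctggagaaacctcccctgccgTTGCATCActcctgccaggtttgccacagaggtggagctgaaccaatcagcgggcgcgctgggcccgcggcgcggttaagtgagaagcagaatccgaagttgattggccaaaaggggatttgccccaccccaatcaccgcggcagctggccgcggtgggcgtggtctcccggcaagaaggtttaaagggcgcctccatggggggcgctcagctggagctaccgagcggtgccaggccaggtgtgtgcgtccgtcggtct
ATF3 (chr1:212565157-212565456, plus strand): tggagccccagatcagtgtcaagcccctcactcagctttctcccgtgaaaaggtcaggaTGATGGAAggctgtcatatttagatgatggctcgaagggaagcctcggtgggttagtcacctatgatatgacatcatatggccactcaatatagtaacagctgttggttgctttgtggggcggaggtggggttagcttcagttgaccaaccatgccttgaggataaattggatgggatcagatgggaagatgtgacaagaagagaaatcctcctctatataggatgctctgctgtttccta
ASNS (chr7:97872359-97872658, minus strand): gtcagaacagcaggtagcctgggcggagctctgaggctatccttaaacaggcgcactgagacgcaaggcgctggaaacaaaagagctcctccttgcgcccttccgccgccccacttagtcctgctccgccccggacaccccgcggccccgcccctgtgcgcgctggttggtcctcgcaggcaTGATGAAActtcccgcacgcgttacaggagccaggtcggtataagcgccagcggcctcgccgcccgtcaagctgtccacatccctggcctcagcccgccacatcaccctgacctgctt
CDKN3 (chr14:54396757-54397056, plus strand): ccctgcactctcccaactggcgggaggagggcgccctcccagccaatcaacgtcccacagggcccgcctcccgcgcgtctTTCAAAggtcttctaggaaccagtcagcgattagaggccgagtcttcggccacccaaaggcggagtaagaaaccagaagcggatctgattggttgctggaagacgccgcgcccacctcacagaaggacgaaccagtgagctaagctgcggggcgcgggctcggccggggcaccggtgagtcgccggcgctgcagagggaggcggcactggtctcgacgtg
Counted from the annotated start, the matches begin at position −209 in CHAC1 (on the opposite strand), −191 in ATF3, −68 in ASNS and −170 in CDKN3 (opposite strand). The composite element occurred in 2.52% of the 14250 promoters of measured genes, in 7 of 227 promoters (3.08%) of genes 2-fold higher at 24 h and in 2 of 218 (0.917%) of genes 2-fold lower. It occurred in 4 of 14 promoters of serine, one-carbon and asparagine synthesis genes and in 5 of 15 of tRNA synthetases, but in 1 of 16 of the other ATF4 targets. The homology region occurred in 12% of all promoters and in 36 of 57 (63.2%) of mitotic genes. It occurred in 11.5% of the genes 2-fold higher and 11% of those 2-fold lower at 24 h. Of 3 further motifs searched on both strands, the sterol response element occurred in 1 of 21 cholesterol gene promoters (0.112% of all), the E2F site TTTGGCGC in 7 of 44 of DNA replication (0.856% of all) and the E-box core CACGTG in 2 of 10 of the TXNIP group (8.69% of all). These are matches of letters only.

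The regulators of the integrated stress response were partly higher at 24 h. Of 16 measured members, 2 were 2-fold higher and 1 was 2-fold lower (background 1.54% of all genes each way). The median difference was 0.31, against 0.01 over all genes. ATF3 read 11.53 at 24 h and 9.14 at 0 h, a difference of 2.39, and 10.83 at 48 h. PPP1R15A, which directs the phosphatase that dephosphorylates eIF2α, read 9.63 at 24 h and 8.18 at 0 h, a difference of 1.44. Both starved arrays of the time course thus lay above the control for these feedback genes.

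NUPR1 (16.01 at 24 h, 15.17 at 0 h), TRIB3 (13.97 and 13.17) and CEBPG (13.41 and 12.63) were higher by 0.85, 0.80 and 0.77, which is within 2-fold. ATF4 itself read 14.40 at 24 h and 14.14 at 0 h, a difference of 0.26, and DDIT3, which encodes the pro-apoptotic factor CHOP, read 10.92 and 10.55. The sensor kinase gene EIF2AK4 differed little (9.69 at 24 h, 9.86 at 0 h). The one regulator past 2-fold in the other direction was EIF2AK1, the heme-regulated eIF2α kinase, at 12.70 at 24 h and 13.71 at 0 h. Against the control of the DMKG experiment the list median was 0.75, with 7 members 2-fold higher and 0 lower, where 11.1% of all genes were higher and 11.1% lower. In the separate 48 h comparisons the median was 0.62 in the DMKG experiment and 0.82 in PC3 cells.

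Targets of ATF4 outside amino acid supply were higher as a list at 24 h. Of 20 measured members, 18 had a positive difference (background 51.3% of all genes), and the median was 0.83. Of the 20, 7 (35%) were 2-fold higher and 0 were 2-fold lower (background 1.54% each way). The 7 were CHAC1, ULBP1, JDP2, GDF15, DDIT4, GADD45A and STC2. CHAC1 read 14.38 at 24 h, 12.48 at 0 h and 14.34 at 48 h. GDF15 read 14.77 at 24 h and 13.28 at 0 h, and reached 15.65 at 48 h. DDIT4, a brake on the growth kinase complex mTORC1, read 13.97 at 24 h, 12.51 at 0 h and 14.07 at 48 h. For CHAC1 and DDIT4 both starved time points were thus close together, while GDF15 was higher again at 48 h.

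ULBP1, a ligand of the natural killer cell receptor NKG2D, read 7.56 at 24 h and 5.71 at 0 h, so that it was above the negative controls on the starved array alone. JDP2, a repressor of the AP-1 family, read 9.37 and 7.77, and STC2, a secreted glycoprotein gene, 11.28 and 10.23. SESN2, a leucine sensor that restrains mTORC1, was closer to its control (11.26 and 10.71), as was NIBAN1 (11.78 and 11.52). The 2 members with a negative difference were XPOT, the tRNA exporter (14.44 and 14.55), and INHBE (3.50 and 3.55), which was not above the negative controls.

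The other arrays gave larger differences for the same list. Its median was 0.75 at 48 h of the time course, which shares the 0 h array, but 2.28 in the DMKG experiment and 2.21 in PC3 cells, with 16 and 17 of 20 members 2-fold higher in those 2 comparisons (backgrounds 4.05% and 4.95% of all genes). Against the control of the DMKG experiment the 24 h array gave a median of 2.28 and 15 members 2-fold higher (background 11.1% of all genes). The differences were then 7.72 for CHAC1, 7.05 for GDF15 and 5.52 for DDIT4. For CHAC1 the 48 h starved levels of the time course and the DMKG experiment (14.34 and 12.90) lay closer together than the controls (12.48 and 6.56). For XPOT the starved levels (13.88 and 15.95) lay further apart than the controls (14.55 and 14.53), in the same order. These levels were not normalized across both experiments.

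**Figure D2:**
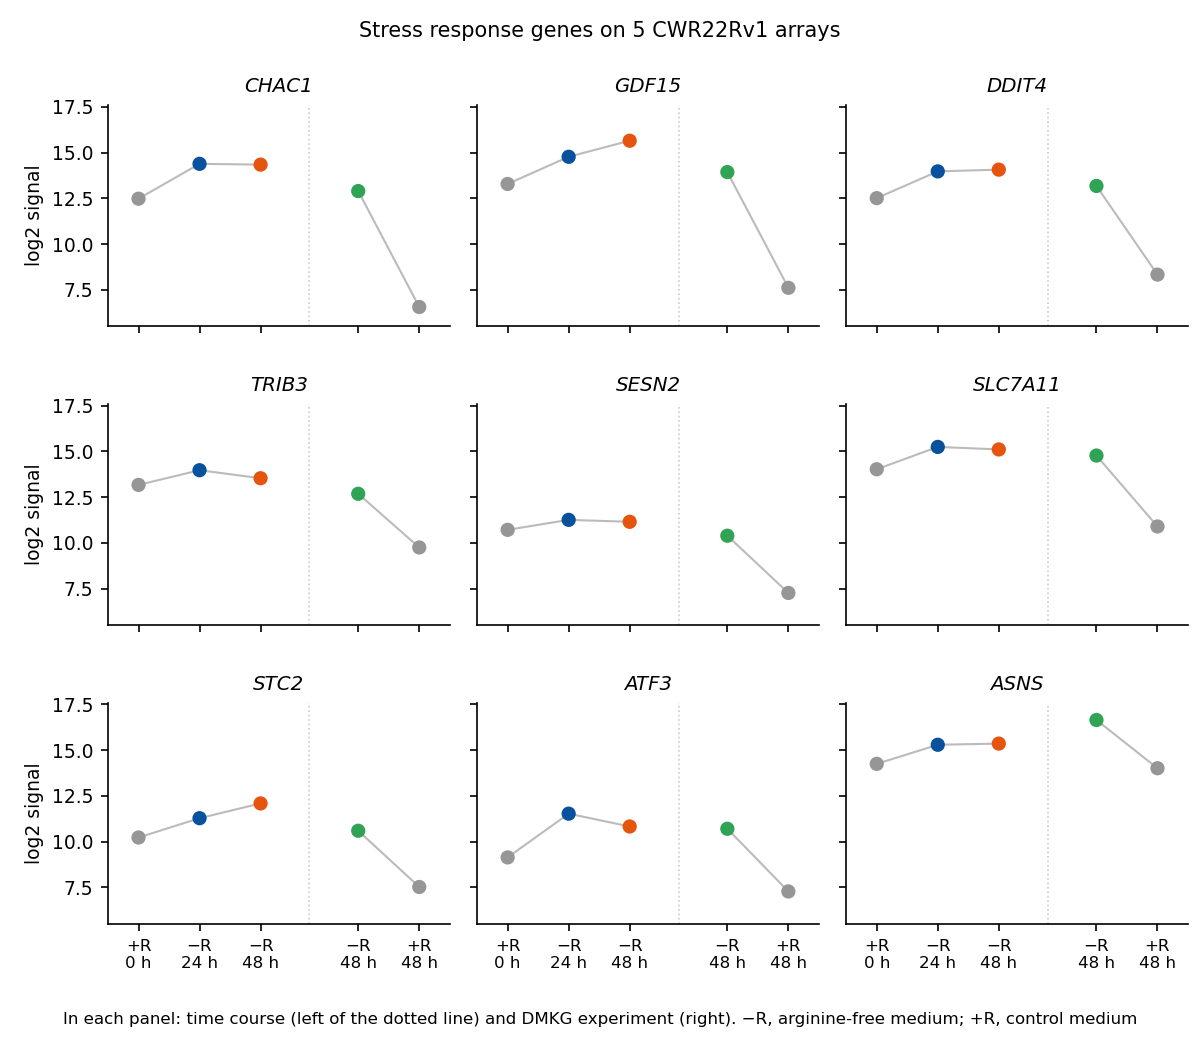
Level of 9 stress response genes (y axis, log2 signal) on 5 CWR22Rv1 arrays, the time course at 0, 24 and 48 h on the left of each panel and the DMKG experiment (arginine-free, then control) on the right, 1 array a point. For CHAC1 the control reads 12.48 in the time course and 6.56 in the DMKG experiment, while ASNS reads 14.25 and 14.01.

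Genes of amino acid supply differed less. In the list of serine, one-carbon, proline and asparagine synthesis 1 of 19 members was 2-fold higher, 0 were lower, 15 had a positive difference and the median was 0.34. The member past 2-fold was ASNS, asparagine synthetase, at 15.30 at 24 h, 14.25 at 0 h and 15.36 at 48 h. PHGDH, the first enzyme of serine synthesis, read 15.28 at 24 h and 14.50 at 0 h, MTHFD2 of the mitochondrial folate pathway 16.05 and 15.33, and PSAT1 16.51 and 16.15. ALDH18A1, which starts proline synthesis, was lower (12.14 and 12.63). ASNS differed by only 0.22 between both normalized controls, against 2.48 for PHGDH, and its 24 h difference was 1.28 with the control of the DMKG experiment. The list median with that control was 1.11, with 11 members 2-fold higher and 1 lower (background 11.1% each way).

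Among 33 amino acid transporters 2 were 2-fold higher and 2 were 2-fold lower (background 1.54% of all genes each way), with a median of 0.05. The cystine transporter SLC7A11 read 15.24 at 24 h and 14.02 at 0 h, a difference of 1.22. SLC38A4 was past 2-fold at levels (5.99 and 4.68) that were not above the negative controls. SLC7A1, the main carrier of arginine, was higher by 0.53 (14.80 and 14.27), SLC7A2 by 0.80 (9.35 and 8.56) and the glutamine carrier SLC38A2 by 0.83 (15.86 and 15.03). Lower were the taurine transporter SLC6A6 at 8.01 and 9.41, a difference of −1.40, and SLC7A8 at 7.03 and 8.10. The large neutral amino acid carrier SLC7A5 was high on both arrays (15.45 and 15.78). The control of the DMKG experiment gave a median of 0.56, with 10 members 2-fold higher and 1 lower (background 11.1% each way).

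Of 17 cytosolic aminoacyl-tRNA synthetases and partners 1 was 2-fold higher, YARS1 for tyrosine at 14.06 at 24 h and 12.96 at 0 h, and 0 were lower. The median was 0.14 at 24 h, 0.33 at 48 h of the time course, 0.87 in the DMKG experiment and 0.57 in PC3 cells. The 24 h array gave 0.82 against the control of the DMKG experiment, although RARS1 itself then differed by −1.10. RARS1, which charges the arginine tRNA, read 11.11 at 24 h, 10.99 at 0 h and 11.92 at 48 h, and in the DMKG experiment it read 12.05 in starved and 12.19 in control cells. HARS1 for histidine was the lowest member (10.21 and 10.93).

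Enzymes of arginine metabolism did not pass 2-fold in either direction (0 and 0 of 19 members, median 0.15), and 8 members were above the negative controls. ASS1, which rebuilds arginine from citrulline together with ASL, read 7.13 at 24 h and 7.10 at 0 h but 8.38 at 48 h. ASL was higher by 0.64 (10.10 and 9.46). ASS1 was 1.29 higher in the DMKG experiment and 2.30 higher in PC3 cells, both after 48 h. The ornithine aminotransferase OAT was lower by a difference of −0.77 (10.38 and 11.16). The list median was 0.00 with the control of the DMKG experiment, with 5 members 2-fold higher and 1 lower (background 11.1% each way).

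Among 36 genes of arginine sensing and of the brakes on mTORC1, 2 were 2-fold higher and 1 was 2-fold lower, with a median of 0.16. They were DDIT4, described above, SESN3, a sestrin (7.84 at 24 h, 6.60 at 0 h), and CASTOR1, a cytosolic arginine sensor, at 4.21 and 5.22 and hence not above the negative controls. Core components were close to their control, MTOR at 8.29 on both arrays and RHEB at 13.34 and 13.25. Set against the control of the DMKG experiment, the list median had the other sign (−0.14). Then 8 members were 2-fold higher and 3 lower (background 11.1% each way).

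Protein folding genes tended to be lower at 24 h in CWR22Rv1 cells. Of 14 heat shock chaperones 0 were 2-fold higher and 2 were 2-fold lower (background 1.54% of all genes each way). A negative difference was held by 11 of them, against 8585 of all 17687 genes, and the median was −0.40. HSPH1 read 10.17 at 24 h, 11.73 at 0 h and 11.14 at 48 h, HSPB1 14.55, 15.70 and 15.05, and HSPA1A, the inducible HSP70, 9.27, 10.27 and 10.57. The 24 h array was the lowest of the time course for these 3 genes, and the list median at 48 h was 0.19. With the control of the DMKG experiment the median was −0.95. That experiment itself gave −0.70 and PC3 cells −0.16.

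The endoplasmic reticulum list was mixed, with 2 of 30 members 2-fold higher, 2 lower and a median of −0.22. ERN1, the stress sensor IRE1α, read 11.16 at 24 h and 9.93 at 0 h, and its splicing target XBP1 12.30 and 11.43. ERO1B was past 2-fold at a level that was not above the negative controls (5.60 and 4.42), and its sign turned with the control of the DMKG experiment (−0.45). The chaperone genes PDIA4 (9.97 and 11.08) and CRELD2 (8.87 and 9.96) had differences of −1.10 and −1.09. The list median was −0.36 with that control. It was −0.12 at 48 h of the time course and −0.29 in the DMKG experiment. In PC3 cells it had the other sign (0.38), with 26 of 30 members positive (background 52.1% of all genes).

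Cholesterol synthesis genes were lower as a list. Of 23 measured members 19 had a negative difference, against 8585 of all 17687 genes, and the median was −0.53. Of the 23, 4 (17.4%) were 2-fold lower and 1 was 2-fold higher (background 1.54% of all genes each way). HMGCS1, an early enzyme of the pathway, read 8.04 at 24 h, 9.60 at 0 h and 8.90 at 48 h. DHCR7, which catalyses the last step to cholesterol, read 11.47, 12.98 and 11.90, and ACAT2 8.64, 9.98 and 8.65. The fourth was CYP51A1, lanosterol demethylase, at 11.66, 12.80 and 11.46 in the same order. For HMGCS1 and DHCR7 the 24 h array was the lowest of the 3 time points.

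TM7SF2, a sterol reductase gene, was the member 2-fold higher (13.21 at 24 h, 12.20 at 0 h). The master regulator gene SREBF2 read 10.39 and 10.82, and SREBF1 7.58 and 8.03. The list median was −0.40 at 48 h of the time course, −1.70 in the DMKG experiment and −1.11 in PC3 cells. Against the control of the DMKG experiment it was −1.85, with 19 members 2-fold lower and 2 higher (background 11.1% each way). Fatty acid synthesis genes had a median of −0.25 with 0 of 15 past 2-fold, FASN, the fatty acid synthase, reading 11.04 and 11.80 and ACLY, which supplies acetyl-CoA, 12.24 and 13.14. Their median was −0.62 with the control of the DMKG experiment.

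The glucose-responsive TXNIP group held several higher genes, and the glycolytic list did not. Of 10 genes of the TXNIP group, arrestins that limit glucose uptake with their partners, 3 were 2-fold higher (background 1.54% of all genes). They were ARRDC3 (10.92 at 24 h, 9.44 at 0 h), TXNIP (13.63 and 12.60) and the repressor gene HBP1 (13.17 and 12.16). TXNIP was higher again at 48 h, at 14.49, and ARRDC3 was not, at 9.74. HBP1 turned sign with the control of the DMKG experiment (−0.35). Of 22 glycolytic genes 1 was 2-fold lower, the hexokinase HK1 (9.82 and 10.98), whose sign also turned with that control (0.39). The medians of the TXNIP group and of the glycolytic list were 0.19 and −0.17, and with that control 0.74 and 0.39.

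Among autophagy and lysosomal genes 2 of 42 were 2-fold higher and 1 was lower (background 1.54% of all genes each way), with a median of 0.06. The higher ones encode ubiquitin-like proteins of the autophagosome membrane: GABARAPL1 read 10.19 at 24 h, 8.38 at 0 h and 11.28 at 48 h, and MAP1LC3B 13.55, 12.51 and 12.96. The autophagy receptor SQSTM1 was within 2-fold at 24 h (12.35 and 11.45) and reached 13.11 at 48 h. WIPI2 was lower (11.12 and 12.12), with the opposite sign against the control of the DMKG experiment (0.58). With that control the list median was 0.45, with 11 members 2-fold higher and 0 lower (background 11.1% each way).

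In the list of glutathione genes and targets of NRF2, 3 of 22 were 2-fold higher and 0 lower (background 1.54% of all genes each way). HMOX1, heme oxygenase 1, read 7.83 at 24 h, 5.77 at 0 h and 9.71 at 48 h. Its level was thus higher at each later time point, whereas HMOX1 read 3.41 in starved cells and 3.21 in control cells of the DMKG experiment. The other 2 were CHAC1 and SLC7A11, which are also ATF4 targets. GCLC, the catalytic subunit of the glutathione-making ligase, was lower (10.58 and 11.36). The list median was 0.00. With the control of the DMKG experiment it was 0.62, with 9 members 2-fold higher and 2 lower (background 11.1% each way).

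Immediate early factors and their feedback genes leaned higher, with 3 of 25 members 2-fold higher, 0 lower, 19 with a positive difference and a median of 0.20. Over all genes 1.54% were 2-fold higher, 1.54% lower and 51.3% positive. DUSP1, a phosphatase that switches off stress-activated kinases, read 11.31 at 24 h, 9.68 at 0 h and 11.48 at 48 h. KLF6 read 10.96, 9.37 and 10.69 and JUN, an AP-1 subunit, 10.72, 9.71 and 10.54. The median was 0.86 at 48 h of the time course, where 9 members were 2-fold higher (background 2.96% of all genes). NR4A1, an orphan nuclear receptor gene, read 9.47 at 24 h and 9.35 at 0 h, with a difference of 1.65 at 48 h, and KLF10 read 11.35, 10.45 and 12.56. With the control of the DMKG experiment the 24 h median was 1.05, with 13 members 2-fold higher and 1 lower (background 11.1% each way).

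Of 21 target genes of p53, 17 had a positive difference and 2 were 2-fold higher (backgrounds 51.3% and 1.54% of all genes). The 2 were DDB2 of nucleotide excision repair (9.09 at 24 h, 7.62 at 0 h) and GADD45A (9.75 and 8.60), which is also an ATF4 target. CDKN1A, the p21 inhibitor of cyclin-dependent kinases, read 11.79 at 24 h and 11.35 at 0 h but 13.06 at 48 h. MDM2 read 11.69 and 11.26. The median was 0.26 at 24 h and 0.76 at 48 h of the time course, and 0.77 for the 24 h array against the control of the DMKG experiment.

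Mitotic genes were not lower at 24 h as a list. Of 66 members 33 had a positive and 33 a negative difference, the median was 0.02, and 1 (1.52%, against 1.54% of all genes) was 2-fold lower. That gene was CDKN3, a phosphatase of cyclin-dependent kinases, at 10.00 at 24 h, 11.58 at 0 h and 8.20 at 48 h. CCNB1, cyclin B1, read 9.20, 10.15 and 7.94, and TPX2, a spindle assembly factor, 9.44, 10.26 and 8.30. On the other side CDC20, the activator of the anaphase-promoting complex, read 13.99 at 24 h, 13.24 at 0 h and 11.35 at 48 h, and CCNB2 11.45, 10.59 and 10.19.

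At 48 h of the time course all 66 mitotic genes lay below the shared control, 33 of them 2-fold (background 4.16% of all genes), and their median was −0.96. PC3 cells had 62 of 66 members 2-fold lower (background 5.98%) and a list median of −3.00. The DMKG experiment gave 14 (background 3.61%) and −0.42. Against the control of the DMKG experiment the 24 h array gave a median of −0.77, with 25 members 2-fold lower and 3 higher (background 11.1% each way). The near-zero value at 24 h thus holds for the time course control and not for the other one.

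Replication-dependent histone genes, which are transcribed in S phase, followed a like order. At 24 h 40 of 49 had a negative difference, against 8585 of all 17687 genes. Of the 49, 3 (6.12%) were 2-fold lower (background 1.54%), and the median was −0.17. H2BC14 read 13.36 at 24 h, 14.75 at 0 h and 7.95 at 48 h, H2BC8 11.12, 12.14 and 8.23, and H2BC17 7.03, 8.18 and 6.86. At 48 h 31 of 49 were 2-fold lower (background 4.16% of all genes) with a median of −1.32. Against the control of the DMKG experiment the 24 h median had the other sign (0.64), as had H2BC17 (2.06), and in that experiment itself the median was 0.00. Members of this family are near-identical in sequence, and how well probe sets separate them is uncertain.

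DNA replication genes were near their control, with 1 of 50 members 2-fold higher, 2 lower and a median of −0.08. POLE2, a subunit of DNA polymerase ε, read 6.89 at 24 h and 8.15 at 0 h, and RPA1, which coats single-stranded DNA, 11.18 and 12.33. ORC6 of the origin recognition complex was higher (9.12 and 8.11), with the opposite sign against the other control (−0.10). Among G1 and S phase regulators 0 of 20 passed 2-fold. Homologous recombination and Fanconi genes had a median of 0.00 with 0 of 31 past 2-fold, BARD1 at 6.92 and 7.78 being the lowest. With that control the medians were −0.19 for replication, −0.43 for the G1 and S phase list and 0.03 for recombination.

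**Figure D3:**
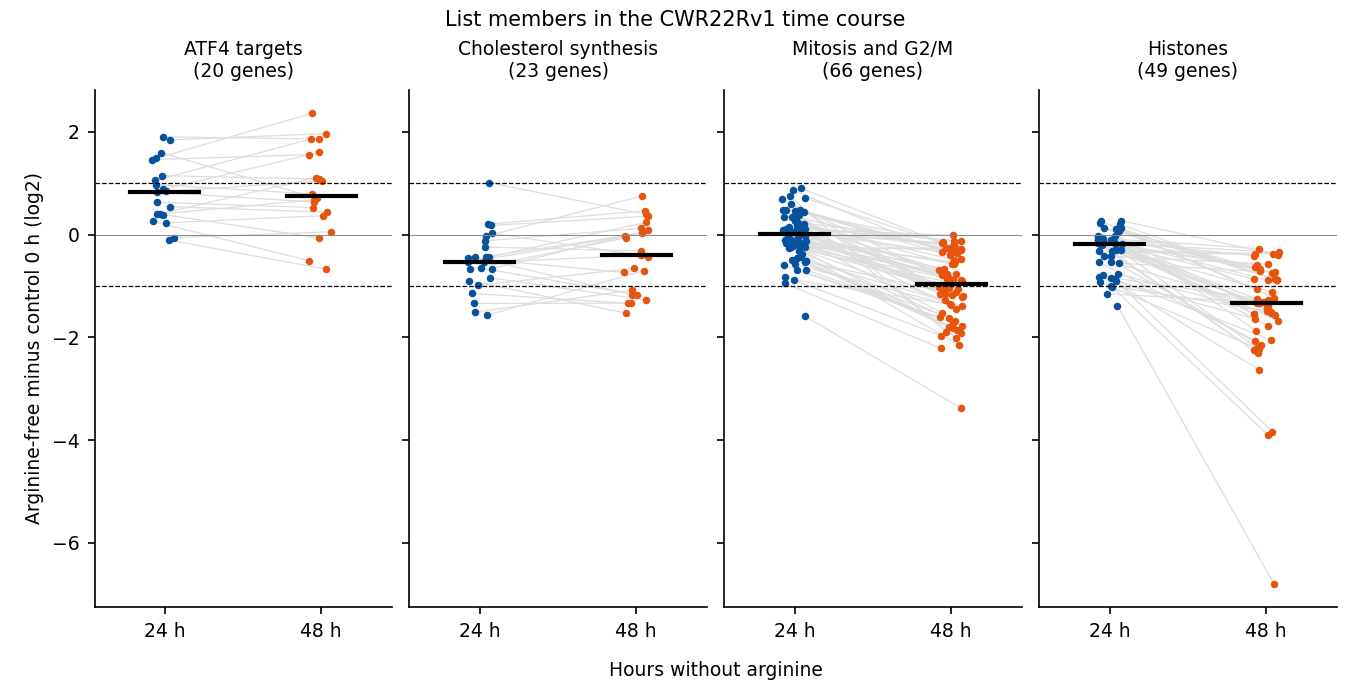
Differences of list members from the shared 0 h array (y axis, log2) at 24 h and 48 h without arginine, 1 point a gene, with black bars at list medians, grey lines joining a gene and dashed lines at 2-fold. The medians at 24 h and 48 h are 0.83 and 0.75 for ATF4 targets, −0.53 and −0.40 for cholesterol synthesis, 0.02 and −0.96 for mitosis and −0.17 and −1.32 for histones.

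The study chose 2 sets of genes for RT-qPCR from its own expression data, so neither set is independent evidence of a direction. In the nucleotide and repair set 9 of 12 measured members had a negative difference at 24 h, 1 was 2-fold lower and the median was −0.37. The gene past 2-fold was AK5, an adenylate kinase, at levels (3.96 at 24 h, 5.73 at 0 h) that were not above the negative controls. DCLRE1C, the Artemis nuclease of end joining, read 8.02 at 24 h, 8.91 at 0 h and 6.97 at 48 h. DHODH of pyrimidine synthesis read 8.27, 9.05 and 7.96 and FANCI of the Fanconi pathway read 9.64 at 0 h and 8.34 at 48 h with a difference of −0.64 at 24 h, each lower at 48 h than at 24 h.

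Members without a lower value at 24 h were NBN (9.82 at 24 h, 9.27 at 0 h), the large ribonucleotide reductase subunit RRM1 (14.69 and 14.57) and BRCA1 (10.71 and 10.67). BRCA1 read 9.87 at 48 h. The median of the set was −0.78 at 48 h of the time course, −0.61 in the DMKG experiment and −1.23 in PC3 cells, and −0.71 for the 24 h array against the control of the DMKG experiment. Outside this set the nucleotide synthesis enzymes CTPS1 (8.95 and 10.25), CAD (8.12 and 9.13) and ADSS1 (8.16 and 9.70) were 2-fold lower at 24 h, while NT5C2 was 2-fold higher (11.40 and 10.39).

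In the oxidative phosphorylation set all 13 measured members had a negative difference at 24 h, none of them past 2-fold, from −0.91 to −0.03 with a median of −0.61. NDUFA9 of complex I read 12.32 at 24 h, 13.22 at 0 h and 12.14 at 48 h, NDUFB6 10.79, 11.49 and 10.56, and COX18, which inserts a complex IV subunit, 8.47, 9.14 and 7.90. SDHA of complex II read 11.47, 12.13 and 11.55. ATP5F1D of the ATP synthase was near its control at 24 h (12.22 and 12.39) and read 10.62 at 48 h. The set median was −0.95 at 48 h, −0.78 in the DMKG experiment and −1.09 in PC3 cells, and −0.36 at 24 h with the control of the DMKG experiment.

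The medians of the whole complexes were nearer 0 than that of the set with the time course control. The median at 24 h was −0.04 for complex I, where 1 of 32 subunits was 2-fold lower (NDUFA8 at 8.43 and 9.52). It was −0.30 for complexes II and III with 1 of 11 (UQCR10 at 10.62 and 11.91), −0.21 for complex IV with 0 of 14 and −0.30 for complex V with 0 of 16. No subunit was 2-fold higher. With the control of the DMKG experiment the medians were −0.24 for complex I, −0.52 for complexes II and III, −0.16 for complex IV and −0.77 for complex V, so that those of complexes II, III and V were then further from 0 than that of the set. Assembly factors had a median of −0.17 with 2 of 43 lower, COX15 (9.24 and 10.40) and NDUFAF2 (9.22 and 10.29), and mitochondrial ribosomal proteins one of −0.08 with 2 of 75 lower and 1 higher, MRPL2, whose sign turned with the other control (−0.99). The medians of assembly factors and mitochondrial ribosomal proteins were −0.32 and −0.13 with that control. SLC25A10, the mitochondrial dicarboxylate carrier, stood out from these at 8.24 at 24 h, 10.20 at 0 h and 6.67 at 48 h.

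Innate immune genes were mostly dim and near their control. Of 37 interferon-stimulated genes 7 were above the negative controls, 1 was 2-fold higher, the exonuclease gene ISG20 (7.85 at 24 h, 6.74 at 0 h), and the median was −0.02. In the list of the cGAS-STING pathway with type I interferons 5 of 21 members were above the negative controls and 2 were 2-fold lower. They were ENPP1, which hydrolyses the second messenger cGAMP (6.72 and 7.94), and the interferon receptor chain IFNAR2 (8.75 and 9.78). Of 8 NKG2D ligands ULBP1 alone passed 2-fold and was above the negative controls. For antigen presentation B2M read 11.68 and 12.38, and PSMB9, an immunoproteasome subunit, was 2-fold lower at levels (4.29 and 5.64) that were not above the negative controls. Medians against the control of the DMKG experiment were 0.01 for interferon-stimulated genes, −0.11 for the cGAS-STING list, 0.25 for NKG2D ligands and −0.01 for antigen presentation.

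Androgen-regulated and luminal genes had a median of −0.27 with 1 of 25 members 2-fold lower, STEAP1, a prostate surface protein gene, at 10.36 at 24 h, 11.42 at 0 h and 9.99 at 48 h. KLK4, a prostate serine protease gene, read 15.32, 15.79 and 14.59. Dioxygenases that use α-ketoglutarate, among them the JmjC histone demethylases, had a median of 0.26 with 23 of 33 positive and 3 2-fold higher (backgrounds 51.3% and 1.54% of all genes). The 3 were JMJD1C (10.85 and 9.79), KDM7A (8.45 and 7.43) and KDM4D, the last at levels (4.09 and 3.07) that were not above the negative controls. Cytosolic ribosomal proteins stayed close to their control, with 0 of 45 past 2-fold, differences from −0.37 to 0.34 and a median of −0.01. The medians of these 3 lists were −0.38, 0.13 and 0.14 with the control of the DMKG experiment.

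**Figure D4:**
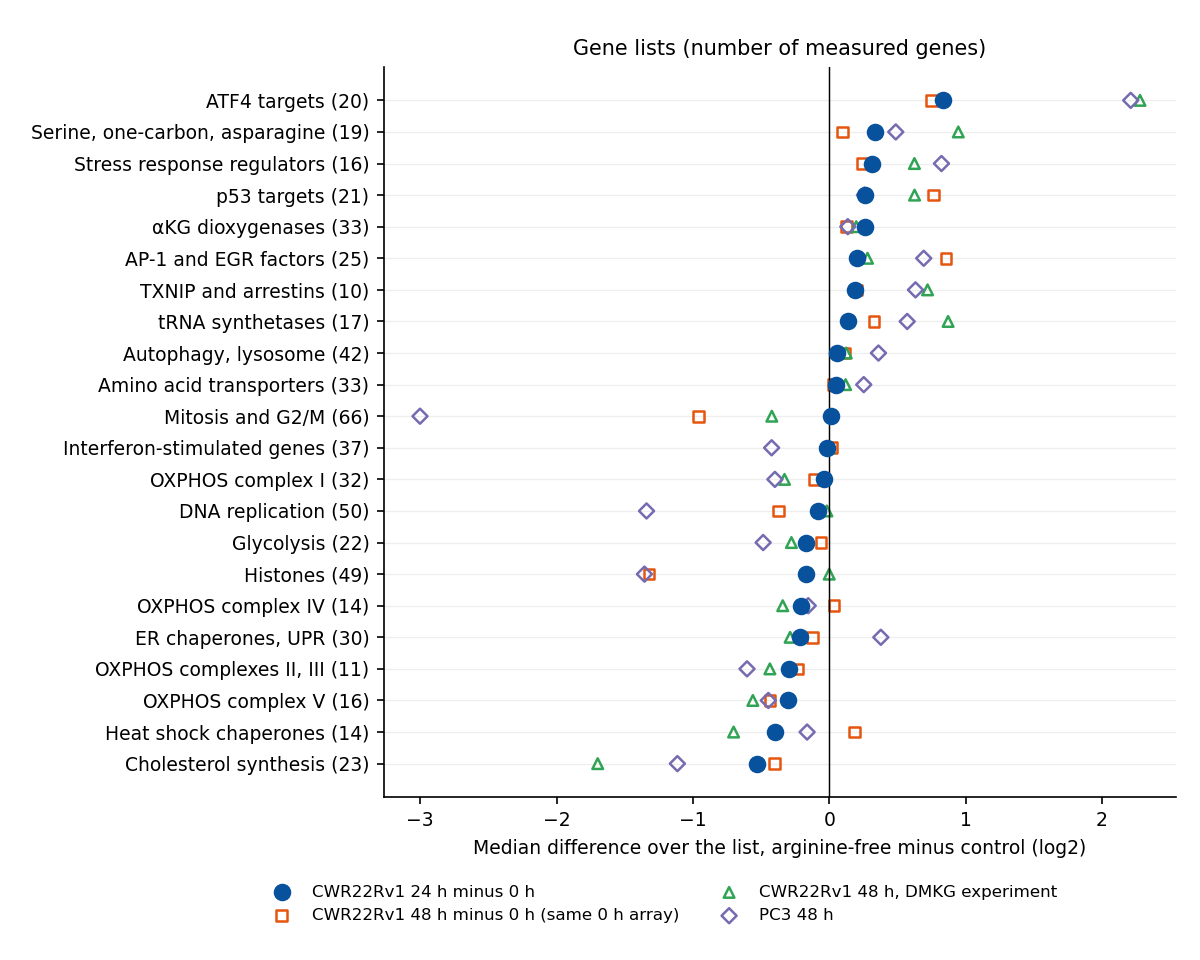
Median difference between arginine-free and control arrays (x axis, log2) for 22 gene lists (y axis, number of measured genes in brackets), sorted by the 24 h value, in the 24 h comparison (filled circles) and the 48 h comparisons (open symbols). At 24 h the medians run from −0.53 for cholesterol synthesis to 0.83 for ATF4 targets, and for mitosis the 24 h point is at 0.02 while the PC3 point is at −3.00.

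Beyond the lists, the largest differences among genes in the upper part of the level range belonged to varied functions. DUX4, a transcription factor gene that lies in a multi-copy repeat so that its signal is uncertain, read 8.90 at 24 h and 6.26 at 0 h. TES read 14.09 at 24 h, 11.73 at 0 h and 14.40 at 48 h. It was 3.48 higher in the DMKG experiment and 2.35 higher in PC3 cells, and the controls of both CWR22Rv1 experiments were close for TES (a gap of 0.06). Further higher genes were GPAT3 of triglyceride synthesis (8.17 and 6.08), the nuclear receptor gene NR5A2 (8.68 and 6.61), CREB5 (9.63 and 7.62), the epithelial factor ELF3 (9.08 and 7.26), TRIM68 (9.35 and 7.55) and IDNK (7.94 and 6.15).

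CIDEB was the lowest gene by difference, at 5.13 at 24 h, 7.91 at 0 h and 5.30 at 48 h. It was also lower in the DMKG experiment (4.83 in starved and 7.45 in control cells). In PC3 cells its mean difference was −0.01. There it read 5.45 to 6.18, below the 95th percentile of the negative controls on every array (7.79 to 8.75), so a fall could not be read. CFAP91, a cilium component gene, read 5.35 at 24 h and 7.78 at 0 h. In the DMKG experiment it held the identical value of 6.48 on the starved and control arrays. That lay below the 95th percentile of their negative controls (6.85 and 7.07), so a fall could not be read there either. The ferrireductase STEAP3 (5.26 and 7.39), the receptor gene CCKBR (6.81 and 8.90), the splicing factors RNPS1 (10.70 and 12.58) and SNRPA1 (10.45 and 12.19) and the annexin ANXA6 (5.38 and 7.19) followed. HES7 (9.14 and 11.25) and CNN2 (7.01 and 9.05) were higher, not lower, at 24 h when set against the control of the DMKG experiment (0.49 and 1.06).

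Many of the early differences were also present after 48 h in the DMKG experiment, which shares no array with the time course. Of the 272 higher genes 128 were 2-fold higher there (47.1% of them and 17.9% of the 717 in that experiment), against 4.05% of all genes. A positive difference there was held by 223 of them, against 39.2% of all genes, and 0 were 2-fold lower. Of the 272 lower genes 130 were 2-fold lower there (47.8% and 20.3% of 639), against 3.61% of all genes. A negative difference there was held by 235 of them, against 39.2% of all genes, and 0 were 2-fold higher. In that experiment 3821 genes (21.6%) held identical values on the starved and control arrays, among them 22 of the higher and 18 of the lower genes, whereas 22 genes (0.124%) did so between 24 h and 0 h. Across the 17687 genes the 24 h differences and those of the DMKG experiment had Pearson's r = 0.490 and Spearman's rho = 0.404, a description over genes, which are not independent replicates.

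In PC3 cells, 88 of the 272 higher genes were 2-fold higher (32.4% of them and 10% of 876) and 73 of the 272 lower genes 2-fold lower (26.8% and 6.9% of 1058), against 4.95% and 5.98% of all genes. There 7 of the higher and 3 of the lower genes passed 2-fold in the opposite direction. The correlation over genes was r = 0.269 (rho = 0.238). The DMKG and PC3 comparisons were of 48 h, so time and experiment cannot be told apart in them.

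The genes past 2-fold at 24 h with the largest differences of one sign in both other comparisons were GDF15, CHAC1, RELN, ATF3 and DDIT4 on the higher side and H2BC14, SLC25A10, CDKN3, DHCR7 and ACAT2 on the lower side. RELN, which encodes the secreted glycoprotein reelin, read 9.06 at 24 h, 7.49 at 0 h and 8.12 at 48 h. It read 10.41 in starved and 4.26 in control cells of the DMKG experiment, and 9.79 and 10.66 in starved against 7.92 and 7.24 in control PC3 cells. SLC25A10 read 5.28 in starved and 9.08 in control cells of the DMKG experiment, and 5.02 and 5.48 in starved against 9.48 and 9.97 in control PC3 cells. The genes were picked for the same sign in all 3 comparisons, so that agreement is no separate result. RELN in the control of the DMKG experiment lay below the 95th percentile of the negative controls. So did SLC25A10 on the starved arrays of the DMKG experiment and of PC3 cells, so the size of these differences is uncertain. For H2BC14 and SLC25A10 the 24 h difference with the control of the DMKG experiment was smaller, −0.38 and −0.97.

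**Figure D5:**
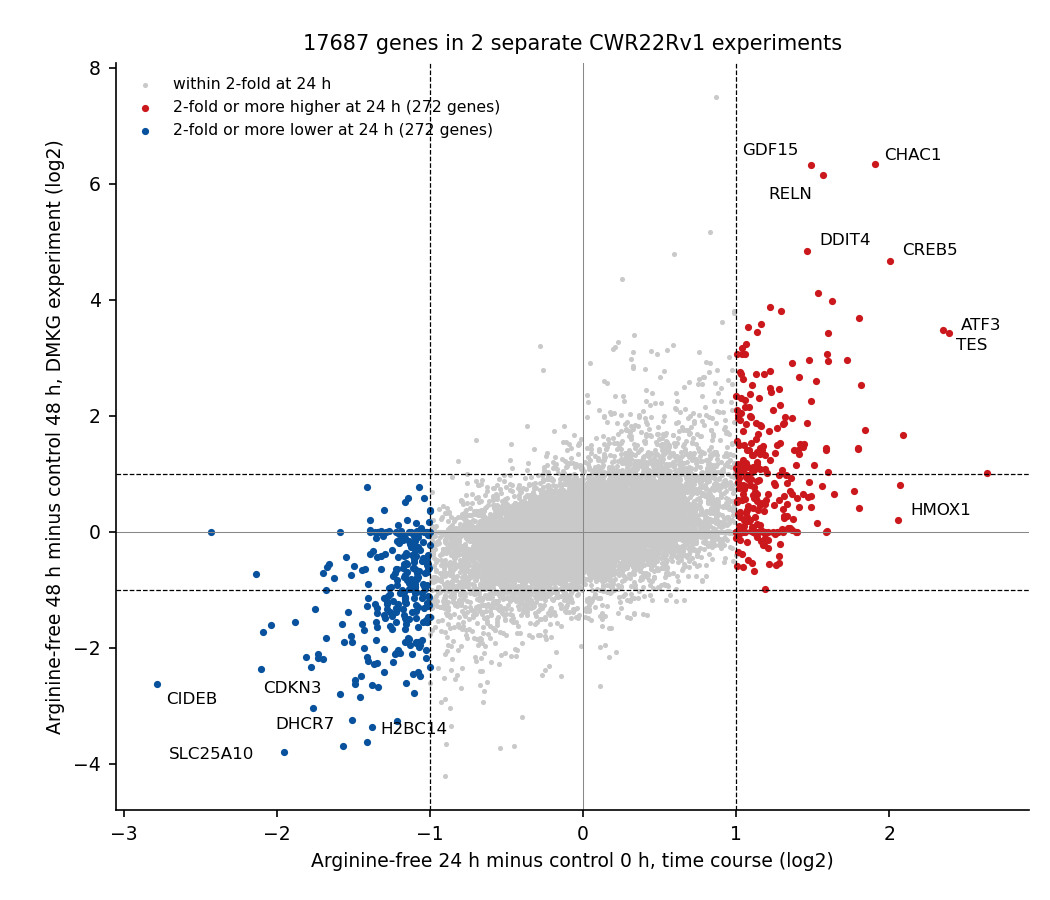
Difference at 24 h in the time course (x axis, log2) against the 48 h difference in the separate DMKG experiment (y axis, log2) for 17687 genes, with dashed lines at 2-fold. Of the 272 genes higher at 24 h 128 lie above the upper line and 0 below the lower one, and of the 272 lower genes 130 lie below the lower line and 0 above the upper one.

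A family that was singled out after its values were seen, the zinc finger genes with ZNF symbols, leaned higher at 24 h. Of 492 measured genes 29 (5.89%) were 2-fold higher and 3 (0.61%) 2-fold lower, against 1.54% of all genes each way. A positive difference was held by 362 (73.6%), against 51.3% of all genes, and the median was 0.23. On chromosome 19, where many of these genes stand in clusters, 20 of 237 (8.44%) were 2-fold higher, against 8 of the 1019 other genes of that chromosome (0.785%). ZNF85 read 12.45 at 24 h, 10.66 at 0 h and 12.32 at 48 h, ZNF773 9.86, 8.27 and 10.24, and ZNF419 9.97, 8.45 and 10.16. Each of these 3 was thus at a similar level at both starved time points.

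The same family had 63 genes 2-fold higher (12.8%) in the DMKG experiment, 16 of which were among the 29, and 55 (11.2%) in PC3 cells. The backgrounds were 4.05% and 4.95% of all genes. With the control of the DMKG experiment the 24 h median was 0.12. Members share long stretches of sequence, and how well probe sets separate them is uncertain. Since the family was chosen for its values, these counts are a description.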

How the data were processed

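RNA of 10 samples was hybridised to Affymetrix Clariom S human arrays. The deposited values are log2 expression values per probe set, which the authors made in Transcriptome Analysis Console (no source read here names its version or how background and array scale were handled). The log2 values were used as deposited within an experiment. Where arrays of both CWR22Rv1 experiments were set against each other, the 6 arrays were quantile normalized first, since each experiment appeared to have been normalized separately. An array signal has no read depth, and 1 array a side limits the precision.

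Of 24351 probe sets, 2903 were controls and 3739 carried no gene symbol in the platform table. A further 17709 had 1 symbol. For 20 symbols with several probe sets the one with the highest mean was kept, which left 17687 genes. Differences were plain subtractions with no test, and PC3 values were differences of means of 2 arrays. Calls were set at 2-fold (a log2 difference of 1). The script was tested on simulated data. Python 3.11.15, pandas 2.3.3, numpy 2.4.6 and matplotlib 3.10.9 were used.

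The genes named were the 15 largest differences in each direction among genes whose higher value passed its array's median, up to 3 in each direction of each of 54 lists, key genes of the pathway and of the study, and up to 5 in each direction that were shared with the other comparisons, 399 in all. A few further members were named for their place in a list, chosen after their values were seen. Members and lists were chosen with earlier results of these data known. Of the key genes, 10 had no value under their symbol and were not analysed here. Alternatives covered the normalization, the control array, the fold, dim genes and probe sets of one gene.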

Additional observations from a re-analysis of the deposited data

Results flagged for a closer look

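For 10 genes past 2-fold at 24 h in CWR22Rv1 cells, PC3 cells differed 2-fold or more in the opposite direction after 48 h without arginine. They were 7 of the 272 higher and 3 of the 272 lower genes. Over all genes 5.98% were 2-fold lower and 4.95% 2-fold higher in PC3 cells, so opposite calls were not more frequent than that. The difference between both lines was not tested, and line and time cannot be told apart. SESN3, a sestrin, differed by −2.93 in PC3 and by 1.24 at 24 h in CWR22Rv1. DDB2, the damaged-DNA binding protein gene, differed by −1.22 in PC3 and 1.47 at 24 h. Both genes lay below the 95th percentile of the negative controls (7.79 to 8.75) on every PC3 array. SESN3 read 3.95 and 2.71 in starved and 6.33 and 6.18 in control PC3 cells. DDB2 read 6.28 and 6.58 in starved and 7.57 and 7.74 in control PC3 cells. ZNF85 differed by −1.0 in PC3 and 1.79 at 24 h, RUNDC3B by −1.42 and 1.06, and TMEM154 by −1.13 and 1.03. In the opposite sense PTGFR, a prostaglandin receptor gene, differed by 2.72 in PC3 and −1.15 at 24 h.

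The remaining 4 genes were not above the negative controls on the 24 h and 0 h arrays: CYP1B1 (1.83 in PC3, −1.30 at 24 h), PLK2 (1.5 and −1.09), GPR4 (−1.28 and 1.11) and KDM4D (−1.28 and 1.02).

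Among the 3739 probe sets without a gene symbol, which the comparisons do not use, 115 (3.08%) were past 2-fold at 24 h, 43 higher and 72 lower than at 0 h. Genes with a symbol had the same share, 3.08%.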

How the results depend on the processing

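With the quantile-normalized control of the DMKG experiment in place of the 0 h array, 1960 genes were 2-fold higher and 1970 lower, against 272 and 272. Of the 399 named genes 86 changed sign, 74 of them among the 296 within 2-fold at 24 h and 12 among the 103 past it; 80 of the 399 moved by less than the SD between PC3 replicates (0.247). The 12 past 2-fold that changed sign were APEX2 (0.83), CNN2 (1.06), ERO1B (−0.45), H2BC17 (2.06), HBP1 (−0.35), HES7 (0.49), HK1 (0.39), MRPL2 (−0.99), ORC6 (−0.10), PSMD3 (0.06), WIPI2 (0.58) and ZNF14 (−0.26). The cause was not tested. Of the genes past 2-fold, 147 of 272 higher (54%) and 133 of 272 lower (48.9%) were past it in the same direction with that control too. At 1.5-fold the counts were 1462 higher and 1449 lower, and at 4-fold 7 and 6. Among genes above the negative controls alone, a setting chosen after seeing the data, they were 175 and 193. Under the other normalizations and the mean of probe sets, no named gene moved by more than that SD. The mean of probe sets could alter only the 20 symbols with several probe sets. The filter on low values kept 361 of the 399 named genes and cannot change a plain difference, so it tested none of them. Leaving out 1 PC3 array at a time gave 86 to 92 higher genes shared with PC3 (88 with all) and 74 to 76 lower (73 with all). With PC3 replicate numbers paired (replicate block) the counts were 88 and 73. With 1 array a side, no paired analysis of the 24 h difference was possible.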
